A study of Mus musculus with 5 samples.

Results

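The 4 genes described here are Cdk5, its activators Cdk5r1 and Cdk5r2, and Cdk5rap2, a centrosomal protein that binds Cdk5r1 and is not itself an activator of the kinase. They were taken by name out of 22380 protein-coding genes of the annotation, and each was given the REST peaks that lay in its body or within 50 kb of its start. This gave 4 sites out of 1860, a site being a stretch where the peaks of one or more libraries overlap. The peaks came from chromatin immunoprecipitation with the REST antibody 12C11 in untreated pancreas of wild-type mouse embryos on a mixed C57BL/6 background, and each library was made from pooled organs. There were 3 libraries of embryonic stage E18.5, late in gestation, named A, B and C and each of 3 to 4 pancreases, and 2 of the earlier stage E13.5, named A and B and each of 4 to 6. The lists held 541, 417 and 226 peaks at E18.5, against 1400 and 1333 at E13.5. They hold no read totals, so sequencing depth is unknown, and a gene without a peak is one where none was called. Whole organs were used, so the cell type that carries a peak cannot be told, and peak lists hold no expression values against which the tissue could be checked.

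REST is a zinc-finger repressor that binds an element called RE1 and holds neuronal genes silent outside neurons. Cdk5 is an unusual member of the cyclin-dependent kinases, because it is switched on by the proteins p35 and p39, encoded by Cdk5r1 and Cdk5r2, and not by cyclins. The kinase is best known for neuronal migration and synaptic function, where tau, neurofilaments and calcium channels are among its substrates, and Cdk5 with p35 also acts on insulin release in pancreatic beta cells. Cdk5rap2 anchors the complexes that start microtubules at the centrosome, and mutations of the human gene cause small brain size.

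The sequences under the peaks were searched for matches to an RE1 and are given first. An RE1 consensus was built from the E13.5 sites outside these genes and read TTCAGCACCANGGACAGCNCC, where N is any base, which leaves 19 of 21 positions to be compared. Each line below gives the best match, in capitals, in the 500 bp around the centre of a site (the mean of the centres of its peaks), read on the strand of the match with 4 bases on either side. The last of the 4 is the peak site nearest to Cdk5, which lies beyond the 50 kb limit.
Cdk5r1, start (chr11:80290529-80290557, + strand): cgtcTGCAGAACCTTGGACAGAAGCaggg
Cdk5r2, past its end (chr1:74904800-74904828, − strand): gcccTTCAGCACCACGGACAGCGAAtcga
Cdk5r2, in Cryba2 (chr1:74938278-74938306, − strand): ctgcATCAGCACCACGGACAGCACCaaag
Nearest to Cdk5 (chr5:23863423-23863451, − strand): gggtTTCAGCACCTCGGACAGAGGCagag

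The matches differed from the consensus at 1 position in Cryba2, 2 past the end of Cdk5r2, 3 at the site nearest to Cdk5 and 5 at the start of Cdk5r1. On either strand, a match with at most 5 mismatches was found in 79.0% of the 1183 sites called in both E13.5 libraries on the assembled chromosomes, and in 1.35% of windows 10 kb downstream of them. With at most 2 mismatches these shares were 32.0% and 0.0845%. The consensus was grown from 375 windows of these same sites, chosen because they already held both parts of the element. The site nearest to Cdk5 was among them, and the downstream windows were not chosen in this way. The shares of the sites were thus partly set in advance. With 5 mismatches the Cdk5r1 match was at the limit of the search, and both Cdk5r2 matches were among the closer ones. The site of Cdk5rap2 had no match within the limit. Its best had 7 mismatches, a number reached by 43.8% of the downstream windows. In a looser search, the left and right parts of the element were allowed either order and any gap up to 30 bases. Cdk5rap2 then reached 5 mismatches, as did 69.4% of the downstream windows. Cdk5r1 reached 4, as did 21.6% of those windows. Both Cdk5r2 sites and the site nearest to Cdk5 had at most 2, as had 0.338% of the windows.

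**Figure D1:**
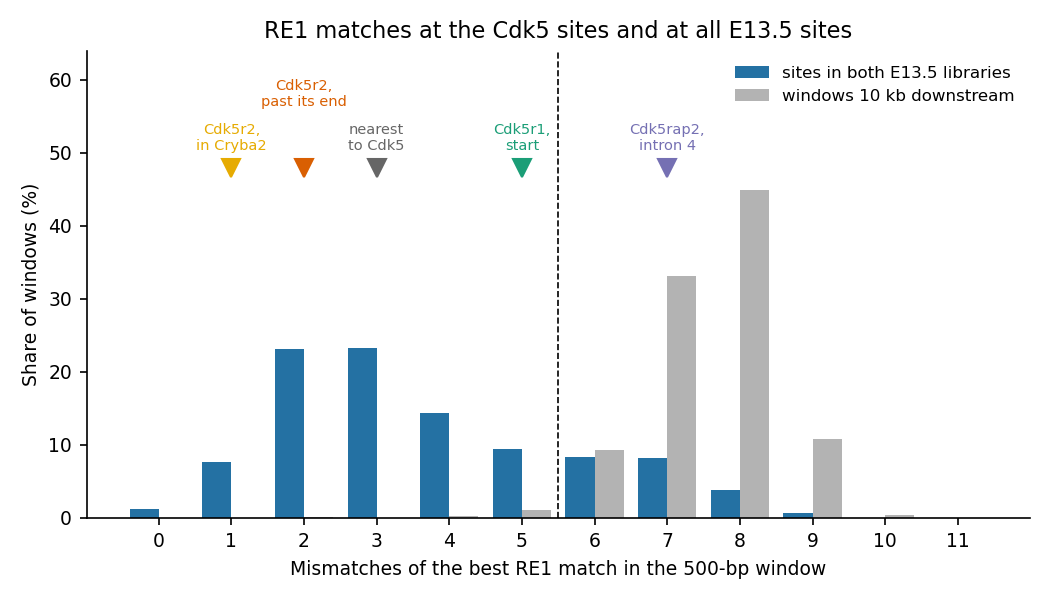
Mismatches (x axis) of the best RE1 match in each 500-bp window against the share of windows in percent (y axis), for the 1183 sites of both E13.5 libraries (blue) and the windows 10 kb downstream (grey). Triangles mark the Cdk5 sites and the dashed line the limit of 5 mismatches, with 4 sites left of it and Cdk5rap2, at 7, among the downstream windows.

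What stood at the centre of the Cdk5rap2 peaks was a repeat. The stretch below covers the middle of the site on the + strand, with the 126 bases that were most often aligned elsewhere in the genome in capitals and 20 bases on either side.
Cdk5rap2, intron 4 (chr4:70039143-70039308, + strand): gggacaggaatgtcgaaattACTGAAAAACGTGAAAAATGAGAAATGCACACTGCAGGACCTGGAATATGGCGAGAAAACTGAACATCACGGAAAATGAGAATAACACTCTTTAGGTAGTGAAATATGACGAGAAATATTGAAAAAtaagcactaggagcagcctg

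The capitals read as mouse major satellite, the tandem repeat of the chromatin beside centromeres. That name was given from the letters, since no repeat annotation was used. The central 200 bp of the site aligned to 2744 other places of the mm9 assembly, at 71.6% to 96.9% identity with a median of 77.8%. Of these places 2084 were on unplaced sequence and 369 between 3 and 4 Mb of chromosome 9. Searched in the same way, the 3 sites of Cdk5r1 and Cdk5r2 and the site nearest to Cdk5 aligned to no other place.

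**Figure D2:**
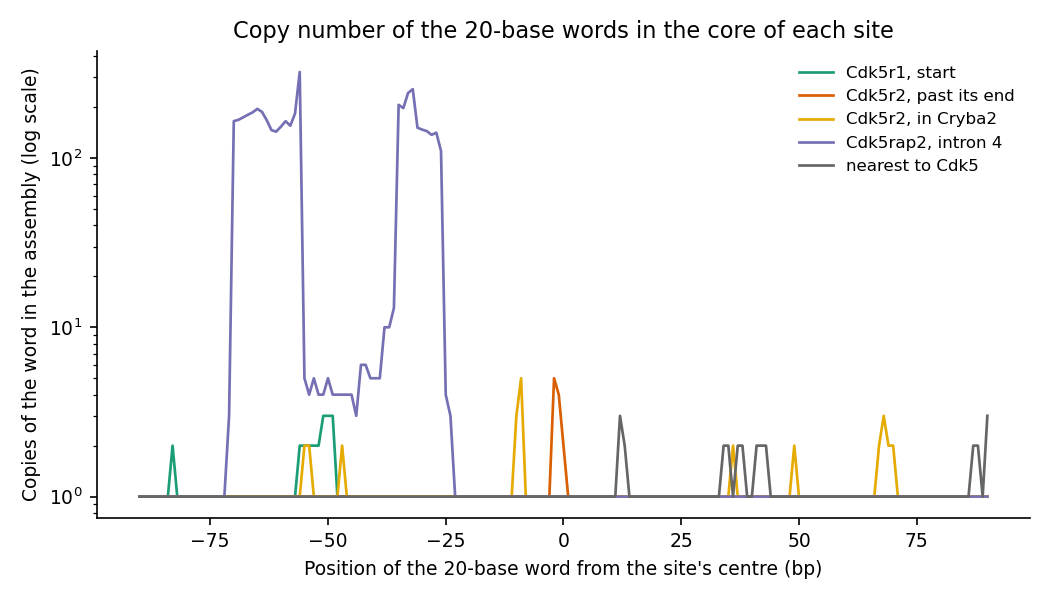
Number of copies in the mm9 assembly (y axis, log scale) of each 20-base word in the central 200 bp of a site, by its distance from the centre of the site in bp (x axis), with a line for each of the 5 sites. Words of the Cdk5rap2 site reach 322 copies, and those of the other 4 sites reach at most 5.

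At Cdk5rap2, 28 of the 181 words of 20 bases in the core occurred 10 times or more and the commonest 322 times, against at most 5 times at the other sites. A core with a word of 100 copies or more was found at 12 of the 110 sites called in all 5 libraries (10.9%) and at 8.71% of the sites of both E13.5 libraries, so repeats as such were not rare under REST peaks. The same kind of sequence was rarer. Of all sites on the assembly, 20 others aligned to the Cdk5rap2 core. None of the 20 had an RE1 match. All 20 were called in E18.5 A, 9 in E18.5 B and 10 in E18.5 C, against 4 in E13.5 A and 8 in E13.5 B, with 11 called in at least 2 E18.5 libraries and 4 in both E13.5 libraries. Each deposited peak has a score, a whole number of unstated unit, which was ranked within its library as a percentile in which 100 is the highest. The lists differ in length, so a percentile places a peak within its own list and gives no direction between the stages. The median percentile was taken over those of the 20 that were called in a library, which were 4 sites in E13.5 A. It was 96.3, 94.6 and 96.5 in E18.5 A, B and C, and 94.3 and 88.3 in E13.5 A and B. Whether the repeat takes part in the calls at Cdk5rap2 was not tested.

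REST peaks were called at 1 of the 4 genes in at least 2 E18.5 libraries and at 3 of the 4 in both E13.5 libraries. The gene at E18.5 was Cdk5rap2, and those at E13.5 were Cdk5r1, Cdk5r2 and Cdk5rap2. Of all protein-coding genes, 2.20% had such a site at E18.5 and 6.89% at E13.5. Without the Cdk5rap2 site, 0 genes at E18.5 and 2 at E13.5, both of them activators, were left. In single libraries, 1 of the 4 genes had a peak in E18.5 A, 2 in E18.5 B and 1 in E18.5 C, against 3 in E13.5 A and 3 in E13.5 B. The same rule gave a peak to 3.28%, 3.06% and 1.97% of all genes in E18.5 A, B and C, and to 7.86% and 7.57% in E13.5 A and B. With 4 genes that were not drawn at random, these counts describe the genes and no more.

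**Figure D3:**
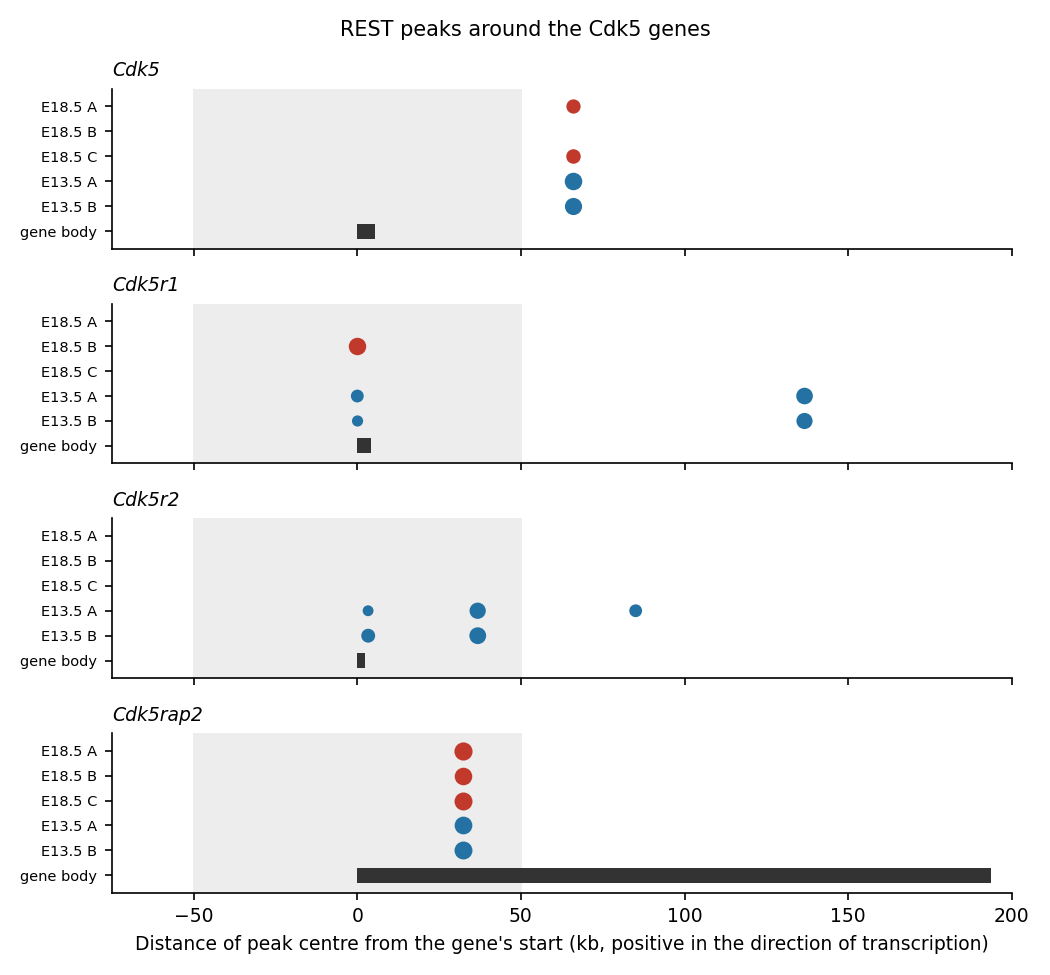
Peaks around each gene by library (rows, E18.5 in red above E13.5 in blue), placed by the distance of their centre from the start of the gene in kb (x axis, positive in the direction of transcription). Larger dots have higher score percentiles, grey shading marks 50 kb either side of the start and the black bar the gene body, and Cdk5rap2 has a dot in all 5 libraries where Cdk5r2 has none at E18.5.

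Cdk5 itself, the kinase, had no peak in any of the 5 libraries. The gene (ENSMUSG00000028969.6) lies on the − strand of chromosome 5 from 23924068 to 23929348 in mm9. The nearest peaks in 4 libraries belonged to a single site at 23863161 to 23863695, 65.9 kb downstream of its start and outside the limit. There the score was 6 in E18.5 A and 11 in E18.5 C, with no peak in E18.5 B, and 29 in E13.5 A and 31 in E13.5 B. The score percentiles were 48.2 (A) and 51.3 (C) at E18.5, against 89.8 (A) and 84.6 (B) at E13.5. The place was thus called in 4 of the 5 libraries, near the middle of the shorter E18.5 lists and in the upper part of the E13.5 lists. Kcnh2, which encodes a potassium channel, and Nos3, the endothelial nitric oxide synthase, have their starts nearest to this site, at 6004 and 7202 bp. In E18.5 B the nearest peak on the chromosome was 2933 kb from the start of Cdk5.

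Cdk5r1, the gene of p35, had a peak over its own start. The gene (ENSMUSG00000048895.11) has 1 exon on the + strand of chromosome 11, from 80290548 to 80294681, and the site at 80290286 to 80290774 covered its start. The centres of the single peaks were at −18 bp from the start in E18.5 B, and at −2 and 68 bp in E13.5 A and B, so they fell on both sides of it. The score was 12 in E18.5 B, with no peak in E18.5 A or C, and 11 in E13.5 A and 11 in E13.5 B. These scores ranked at the 88.4th percentile in E18.5 B, and at the 33.1st and 18th in E13.5 A and B. The same place was thus among the higher peaks of 1 E18.5 library and among the lower peaks of both E13.5 libraries. The peaks were 489 bp long in E18.5 B, and 124 and 296 bp in E13.5 A and B. In the 2 E18.5 libraries without it, the nearest peaks were 1044 kb (A) and 2546 kb (C) from the start.

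The Cdk5r1 window was the richest in G and C among the sites of these genes. It was 78.2% G and C, at the 99.6th percentile of the sites of both E13.5 libraries, whose median was 49.8%, and its observed-to-expected CpG ratio was 1.10, against a median of 0.26. Windows with at least 60% G and C and a ratio of at least 0.6 made up 9.43%, 20.1% and 26.5% of the sites of E18.5 A, B and C, and 8.71% and 8.73% of those of E13.5 A and B. An RE1 match was present in 63 of 108 such windows among the sites of both E13.5 libraries, against 79.0% of all 1183 sites. The windows 10 kb downstream were not matched for base composition. The part of base composition in the E18.5 B peak was not tested.

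Cdk5r2, the gene of p39, had 2 sites, both of E13.5 only. The gene (ENSMUSG00000090071.2) has 1 exon on the + strand of chromosome 1, from 74901508 to 74904005. The nearer site, at 74904587 to 74905080, was intergenic, with its centre 3308 bp from the start and 811 bp past the end of the gene. Its scores were 8 in E13.5 A and 16 in E13.5 B, at the 15.4th and 44.3rd percentiles, and no E18.5 library had a peak there. The farther site, at 74938030 to 74938601 and 36.8 kb from the start, scored 20 in E13.5 A and 28 in E13.5 B, at the 72.5th and 79.8th percentiles, again with no peak at E18.5. The farther site ranked above the nearer one in both E13.5 libraries. By distance it belongs first to other genes. Its centre is in an untranslated part of Cryba2, which encodes a lens crystallin, 1417 bp from the start of that gene, and 6307 bp from the start of Fev, a transcription factor of serotonergic neurons, whereas Cdk5r2 is the nearest start to the first site. The nearest E18.5 peaks to the start of Cdk5r2 were 373, 2318 and 2318 kb away in A, B and C.

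Cdk5rap2 had 1 site, called in all 5 libraries. The gene (ENSMUSG00000039298.9) runs on the − strand of chromosome 4 from 69877890 to 70071477, and the site at 70038942 to 70039530 lies in intron 4, 32.2 kb from the start. Its scores were 46, 13 and 34 in E18.5 A, B and C, and 32 and 47 in E13.5 A and B. The percentiles were 98.8, 90 and 96.5 at E18.5, and 92.8 and 95.7 at E13.5, so it was among the highest-ranked peaks of every library and the stages overlapped. The peaks were 589, 556 and 583 bp long at E18.5, and 142 and 569 bp in E13.5 A and B. The centre of each of the 5 peaks fell inside the 126 bases of repeat, and the short E13.5 A peak covered 84.9% of them. No other gene had this site in its body or within 50 kb of its start. At 193588 bp the body of Cdk5rap2 is far longer than those of the other 3 genes, of 5281 bp or less. Among genes with a body of at least 100 kb, 2.62% had a site in at least 2 E18.5 libraries and 12.0% in both E13.5 libraries, against 2.30% and 6.48% of genes under 10 kb.

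**Figure D4:**
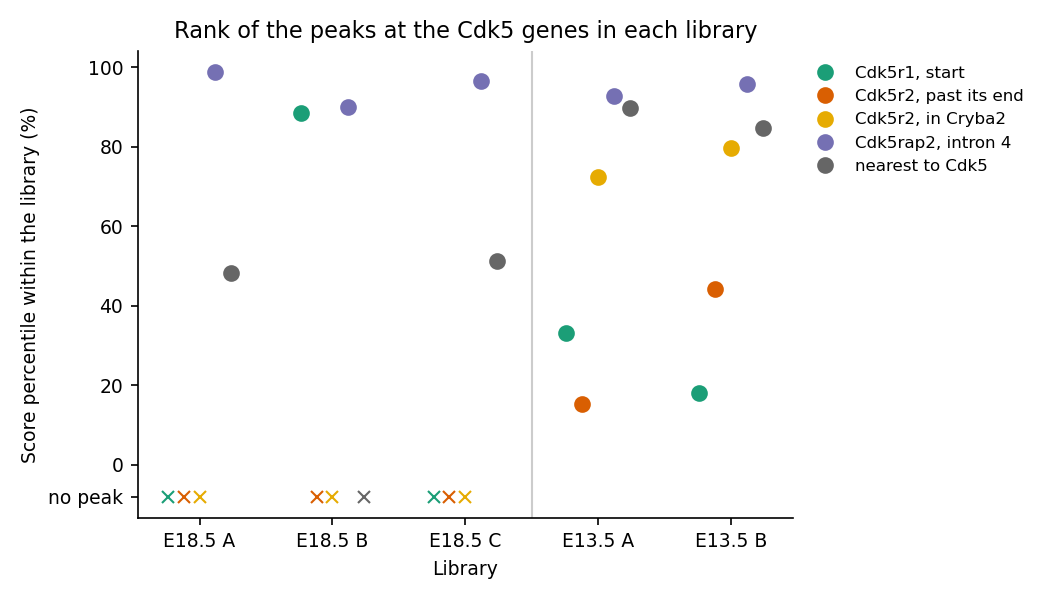
Score percentile within the library (y axis, in percent) of the peaks at each site in the 5 libraries (x axis), with crosses at the bottom where no peak was called. Cdk5rap2 lies between 90 and 98.8 in every library, Cdk5r1 is high in E18.5 B and low in both E13.5 libraries, and both Cdk5r2 sites have peaks at E13.5 only.

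The stages were compared gene by gene over the libraries. Cdk5r2 had a peak in 0 of 3 E18.5 libraries and 2 of 2 E13.5 libraries (difference in share −1, exact two-sided permutation p = 0.2, taken as 2 times the smaller tail, adjusted p = 0.8 over the 4 genes). Cdk5r1 had one in 1 of 3 E18.5 libraries and 2 of 2 E13.5 libraries (difference −0.67, exact permutation p = 0.6, adjusted p = 1). Cdk5 with none and Cdk5rap2 with one in every library showed no difference. With 3 libraries against 2 there are 10 arrangements and the smallest such p is 0.2, so no gene could pass a threshold of 0.05.

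How often a site of like rank at E13.5 was called again at E18.5 gives a scale for these absences. Of the 245 other sites of both E13.5 libraries within 10 percentile points of the Cdk5r1 site, whose mean E13.5 percentile was 25.5, a peak was present in some E18.5 library at 8.57% (exact 95% binomial interval 5.38% to 12.8%) and in E18.5 B at 5.71%. Around the nearer Cdk5r2 site, with a mean of 29.9, the share was 10.9% of 257 sites (7.36% to 15.4%). Most sites of such rank had no E18.5 peak, as was the case past the end of Cdk5r2 and not at Cdk5r1. Around the site in Cryba2, with a mean of 76.1, it was 65.9% of 252 sites (59.7% to 71.7%), so that site was in the smaller group without one. Around Cdk5rap2, with a mean of 94.3, a peak in some E18.5 library was present at 92.7% of 191 sites (88.0% to 95.9%) and in all 3 at 45.5%. These intervals cover counting error over sites of these libraries only.

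**Figure D5:**
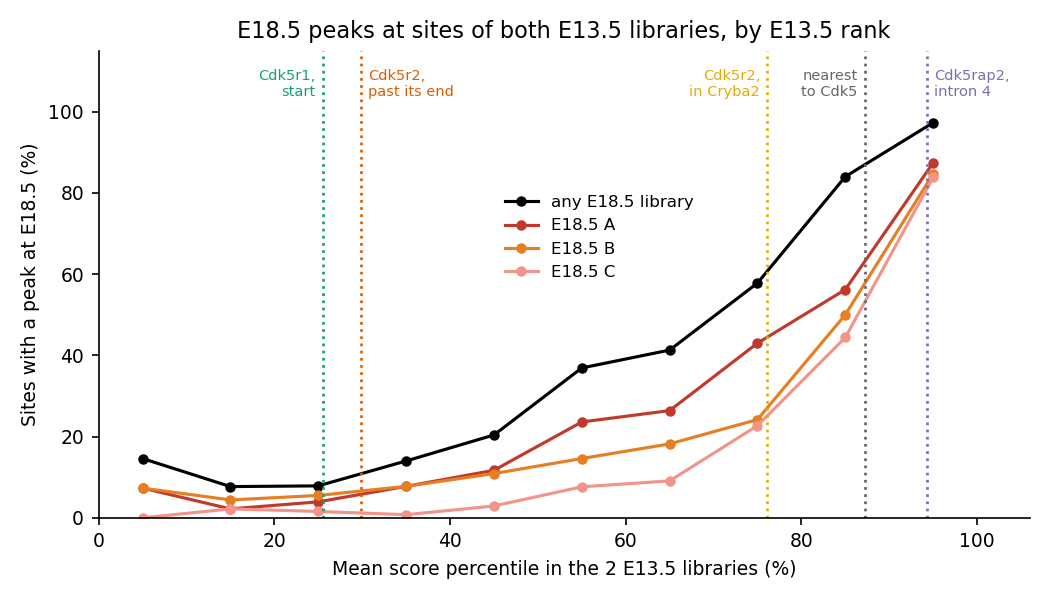
Share with a peak at E18.5, in percent, among sites of both E13.5 libraries (y axis), in any of the 3 libraries (black) and in each (colours), by the mean score percentile of the site in the 2 E13.5 libraries (x axis, bins of 10 points). Dotted lines mark the mean of each Cdk5 site, from 25.5 at Cdk5r1, where few sites were called again, to 94.3 at Cdk5rap2, where most were.

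Over the whole series, the pattern of the Cdk5r2 sites, both E13.5 libraries and no E18.5 library, was shared by 706 of the 1860 sites (38.0%). That of Cdk5r1, with E18.5 B added, was seen at 81 sites (4.35%), and that of Cdk5rap2, with all 5 libraries, at 113 (6.08%). Of the 110 sites in all 5 libraries that lie on the assembled chromosomes, 78 (70.9%) had an RE1 match and 32, Cdk5rap2 among them, had none.

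The other genes around the kinase were counted by the same rule. Among the Cdk5 substrates, 8 of 33 (24.2%) had a site in at least 2 E18.5 libraries and 14 of 33 (42.4%) in both E13.5 libraries, against 2.20% and 6.89% of all genes. This list was chosen with earlier results of these data known, so its counts describe the listed genes and no more. The median body of these substrates was 65.8 kb, against 4.7 kb for Cdk5 and the 3 genes described with it. Among all genes with a body of at least 100 kb, the shares were 2.62% at E18.5 and 12.0% at E13.5. The best-ranked by the mean of the E13.5 percentiles was Nefh, the heavy neurofilament chain, with a site 1.32 kb upstream of its start at the 53.4th percentile in E18.5 B, with no peak in E18.5 A or C, and at the 95.3rd and 83.2nd in E13.5 A and B. Nefh thus had the libraries of Cdk5r1, at higher E13.5 ranks. The light and medium chains, Nefl and Nefm, shared a site 0.859 kb upstream of Nefm that was called in all 5 libraries, at the 61.3rd, 80th and 58.2nd percentiles in E18.5 A, B and C, and at the 86.9th and 79.8th in E13.5 A and B. It had an RE1 match with 2 mismatches, and both genes were counted through it. Cacna1b, the pore of N-type calcium channels, had an intronic site 1.06 kb from its start in all 5 libraries, at percentiles of 81.5, 53.4 and 27.0 in E18.5 A, B and C, and of 94.3 and 71.1 in E13.5 A and B.

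Dpysl2, which encodes the axon growth protein CRMP2, was given a site in all 5 libraries that lay 41.2 kb upstream and nearer to the start of Pnma2. Cacna1a, the pore of P/Q-type calcium channels, had 2 intronic sites of both E13.5 libraries, of which the one 83.1 kb from its start was also called in E18.5 B and C. The others were Crmp1, Kalrn and Ppp1r1b at both stages, and Mapt, Cacna1c, Dab1, Grin2a and Synj1, which met the E13.5 criterion alone. The sites of Mapt, Cacna1c and Ppp1r1b and one of those of Dab1 lay nearer to the starts of other genes.

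The remaining lists held counts near the shares of all genes, 2.20% in at least 2 E18.5 libraries and 6.89% in both E13.5 libraries, and nothing is read from them. Among proteins that regulate or bind Cdk5, 0 of 10 had a site at E18.5 and 1 of 10 at E13.5. The one was Cdkn1b, an inhibitor of cyclin-dependent kinases, through a site in an intron of Gpr19 32.1 kb upstream. Of the other cyclin-dependent kinases, 0 of 18 had a site at E18.5 and 2 of 18 (11.1%) at E13.5. These were Cdk4, a kinase of the G1 phase, through a site nearer to March9, and Cdk9, a kinase of transcription elongation, through one in an intron of Sh2d3c. Of the cyclins, 1 of 13 (7.69%) had one at each stage. It was Ccnc, whose product is part of the Mediator kinase module, with a site 15.4 kb upstream at percentiles of 89.4, 29.5 and 58.2 in E18.5 A, B and C, and of 95.3 and 96.6 in E13.5 A and B. None of 12 centrosomal partners of Cdk5rap2 had a site in any library. Within these lists, Cdk5rap2 shared its presence in all 5 libraries with Nefl, Nefm, Cacna1b, Dpysl2 and Ccnc. Their sites called in all 5 libraries had an RE1 match, which at Ccnc was at the limit of 5 mismatches. Cdkn1b, Cdk4, Cdk9, Grin2a and Synj1, like Cdk5r2, had a site in both E13.5 libraries and no peak in any E18.5 library, whereas Dab1 had another site called in E18.5 B alone.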

How the data were processed

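The authors aligned single-end reads to mm9 (Bowtie2 2.2.5), kept those of mapping quality of at least 10, and used MACS2 2.1.0 with input DNA as the control. The names of the deposited lists state a false discovery rate of 10% and removal of duplicate reads, and there is 1 list per library. The deposited score of a peak is a whole number of unstated unit, and scores were ranked within a library. No peak lay past the end of any of the 20 mm9 chromosomes compared, and 30 entries on other sequence were not searched for RE1. Overlapping entries of a library were merged (4, 2 and 3 at E18.5 and 7 and 2 at E13.5). Peaks sharing at least 1 bp were joined into sites. Genes came from GENCODE vM1.

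The RE1 consensus was grown from 375 windows holding both parts of the element 2 bases apart, outside the sites given to the 4 genes. The site nearest to Cdk5 was not left out. Copies were sought with BLAST 2.17.0 (E value 1e-10) and by counting 20-base words. The searches were tested on simulated sequences. Presence was compared by exact permutation over libraries with Benjamini-Hochberg adjustment. Named were the 4 genes, the 6 best-ranked genes of each list with a site in at least 2 E18.5 or both E13.5 libraries, and genes whose start is nearer to a site. The genes, lists and tests were chosen with earlier results of these data known. The 33 substrates are those of 35 listed that matched the annotation by name. Promoter and protein sequences are not used here.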

Additional observations from a re-analysis of the deposited data

How the results depend on the processing

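The count of genes with a site in at least 2 E18.5 libraries moved from setting to setting. It was 1 as reported, 0 within 5 kb of the start (0.603% of all genes), 2 with a limit of 100 kb, where the site nearest to Cdk5 was added (3.99% of all genes), and 0 without the Cdk5rap2 site, a setting chosen after the data were seen. With the 5 kb limit the genes had 2 sites in all instead of 4. Under it 2 genes had a site in both E13.5 libraries (1.56% of all genes), and 4 with the 100 kb limit (11.9%). Each list was also limited to its best peaks, as many as the shortest list holds. Then 1 gene in place of 3 kept a site in both E13.5 libraries and 2 sites were left. Of all genes, 1.48% had a site in both E13.5 libraries under that setting, against 6.89% as reported. Under that setting the difference in share for Cdk5r1 turned to 0.33 (exact permutation p = 1), because its E13.5 peaks ranked low, and that for Cdk5r2 went to 0 (exact permutation p = 1), since none of its peaks was among those kept. Leaving out each library in turn moved the difference between −1 and −0.50 for Cdk5r1 and left it at −1 for Cdk5r2. The counts of genes and sites did not move, but some of them could not fall. Each of the 4 sites was called in at least 2 libraries, so leaving out 1 could not remove a site. With 1 E13.5 library left, a peak in it was enough, so the E13.5 count of genes could not fall. The domains of GREAT, starts of all transcripts, the higher-scoring part of each list, other joining of peaks and 4 or 6 mismatches kept each count within 1.5 times. With the higher-scoring part, 2 genes in place of 3 had a site in both E13.5 libraries (3.81% of all genes), and 3 sites were left. With 4 mismatches 2 of the 3 RE1 matches were left, as Cdk5r1 has 5. No paired analysis was possible because the letters of the libraries name pools of different embryos.

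Read depth is unknown, and the shorter E18.5 lists and the stage cannot be told apart.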
